A study of Mus musculus with 20 samples.

Results

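Collagens are the fibre- and sheet-forming proteins of the extracellular matrix, and their genes carry symbols that name a collagen type and a chain. All genes with a symbol of the form Col, a number, the letter a and a number were taken as the collagen chain genes, which gave 44 of the 24848 genes in the files. They comprise 11 fibrillar chains, 9 network-forming chains, 6 beaded-filament chains, 1 anchoring-fibril chain, 9 FACIT chains (fibril-associated collagens with interrupted helices), 4 transmembrane chains, 2 multiplexins and 2 others. A filter on low counts left 41 chains for testing; Col9a1, Col22a1 and Col26a1 did not pass it. RNA-seq had been made from mesenchymal cells of the liver of C57BL/6 mice, with 4 libraries in each of 5 groups. The groups were portal mesenchymal stem cells (PMSC), myofibroblasts grown from them and labelled 3d and 7d (PMSC-MF-3d and PMSC-MF-7d), myofibroblasts grown from hepatic stellate cells (HSC-MF-7d), and hepatic stellate cells (HSC). The 3d and 7d labels were read as days in culture. Library titles give 7d for the HSC-derived myofibroblasts, whereas the design text of the series gives 3d, so their time in culture is uncertain and the titles are followed here. The labels name no transgene, treatment or injury, and the sources used here do not give age, sex or the way the cells were isolated. The labels do not state if the 4 libraries of each group stand for different mice or dishes; p-values therefore reflect the spread among libraries alone, which may be technical.

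A collagen molecule is a helix of 3 chains that may be alike or different, so the chains a cell transcribes bear on which types it can assemble. Fibrillar collagens build the tensile fibres of connective tissue, network collagens build the sheets of basement membranes, and the other classes decorate fibrils, link them to cells and basement membranes, or sit in the cell membrane. In the liver, stellate cells of the sinusoid and fibroblasts of the portal tract are regarded as the main sources of the fibrillar collagen of scar tissue after they turn into myofibroblasts.

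Total expected counts were 11810532 to 21438753 in PMSC cells, 23641579 to 24258856 in PMSC-MF-3d cultures, 22738017 to 26675589 in PMSC-MF-7d, 13572278 to 18382038 in HSC-MF-7d and 14806349 to 18650355 in HSC. Levels are given in CPM (counts scaled to a common library size, with TMM factors) when one chain is compared between libraries, and in TPM (which is also scaled for transcript length) when chains are compared with each other. The summed level of 10 portal fibroblast markers was 18006 to 20562 CPM in PMSC cells and 27.9 to 58.2 CPM in HSC, and that of 8 stellate cell markers was 733 to 1206 CPM in PMSC cells and 12436 to 18134 CPM in HSC. HSC libraries also held markers of other liver cells. The 8 hepatocyte markers summed to 3166 to 13412 CPM in HSC libraries, the 8 sinusoidal endothelial markers to 5851 to 6905 CPM and the 8 macrophage markers to 1724 to 6463 CPM, and none of these markers was at 0. In PMSC libraries these 3 sums were 627 to 1046, 68.2 to 199.8 and 7.73 to 18.3 CPM, with the macrophage markers Cd163, Vsig4 and Marco at 0. In the 12 libraries of cultured cells the hepatocyte sum was at most 2.20 CPM and the endothelial sum at most 23.3 CPM. The macrophage sum was 31.0 to 43.1 CPM in PMSC-MF-3d cultures, above that of PMSC. It was 7.66 to 11.9 CPM in PMSC-MF-7d and 11.3 to 20.1 CPM in HSC-MF-7d. The part of these other cells in the collagen levels of HSC was not tested.

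Several collagen genes lie beside each other in the genome (all 44 were found in RefSeq's annotation of GRCm38.p6, the mm10 assembly). Col4a1 and Col4a2 on chromosome 8, Col4a4 and Col4a3 on chromosome 1 and Col4a6 and Col4a5 on chromosome X are transcribed away from each other, head to head. The Col4a1 and Col4a2 annotations overlap by 85 bases and those of Col4a4 and Col4a3 by 114 bases, whereas a gap of 1274 bases separates Col4a6 and Col4a5. Col6a6 and Col6a5 follow each other in tandem on chromosome 9, with 27823 bases between them. The libraries are stranded, but the sources used here do not say whether strand was used in counting, so reads in the overlaps may not be assigned with certainty. Start-site windows are shown for these pairs, which moved together to different degrees over the 20 libraries: 1 window for each pair with overlapping ends (Col4a1 and Col4a4) and both for the other pairs. No window was at hand for Col4a3, and that of Col4a2 is not shown. Each window runs from 250 bases before to 50 bases after a start in RefSeq's promoter table, which lies inside the gene, past its annotated 5′ end, by 1820 bases for Col6a5 and by 19 to 185 bases for the others, 5′ to 3′ on the gene's strand, with CCAAT and GGGCGG in capitals wherever a script found them on either strand (ATTGG and CCGCCC on the other strand).
Col4a1 (chr8:11312777-11313076, minus strand): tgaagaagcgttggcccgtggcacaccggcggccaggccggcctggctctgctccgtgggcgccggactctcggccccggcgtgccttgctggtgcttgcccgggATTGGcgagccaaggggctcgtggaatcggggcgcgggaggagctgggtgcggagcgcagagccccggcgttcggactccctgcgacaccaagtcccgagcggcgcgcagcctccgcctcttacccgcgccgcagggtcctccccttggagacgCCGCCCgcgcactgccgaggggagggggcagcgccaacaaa
Col4a4 (chr1:82586800-82587099, minus strand): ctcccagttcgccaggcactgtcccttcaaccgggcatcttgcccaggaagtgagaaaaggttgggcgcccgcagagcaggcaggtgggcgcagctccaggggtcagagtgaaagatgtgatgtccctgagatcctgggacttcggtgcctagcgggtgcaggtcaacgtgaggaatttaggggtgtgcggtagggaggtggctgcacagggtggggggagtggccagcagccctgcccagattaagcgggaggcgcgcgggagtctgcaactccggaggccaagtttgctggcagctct
Col4a5 (chrX:141475169-141475468, plus strand): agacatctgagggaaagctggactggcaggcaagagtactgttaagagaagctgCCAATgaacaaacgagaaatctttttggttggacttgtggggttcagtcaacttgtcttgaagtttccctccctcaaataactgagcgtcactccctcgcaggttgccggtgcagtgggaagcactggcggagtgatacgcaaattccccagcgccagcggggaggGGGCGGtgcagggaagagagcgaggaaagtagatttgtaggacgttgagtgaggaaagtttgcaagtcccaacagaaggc
Col4a6 (chrX:141474027-141474326, minus strand): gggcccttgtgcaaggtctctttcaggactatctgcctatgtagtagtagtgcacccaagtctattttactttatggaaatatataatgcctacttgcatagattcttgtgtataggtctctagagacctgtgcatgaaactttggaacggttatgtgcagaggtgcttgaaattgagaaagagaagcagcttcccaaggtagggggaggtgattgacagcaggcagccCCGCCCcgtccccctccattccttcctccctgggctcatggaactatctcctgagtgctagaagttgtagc
Col6a5 (chr9:105960594-105960893, minus strand): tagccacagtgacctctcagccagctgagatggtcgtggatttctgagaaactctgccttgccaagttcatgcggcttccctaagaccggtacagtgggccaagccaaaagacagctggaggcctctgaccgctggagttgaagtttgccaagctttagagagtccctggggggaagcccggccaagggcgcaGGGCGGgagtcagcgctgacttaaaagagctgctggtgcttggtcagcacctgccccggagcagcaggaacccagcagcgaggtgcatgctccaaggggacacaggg
Col6a6 (chr9:105828036-105828335, minus strand): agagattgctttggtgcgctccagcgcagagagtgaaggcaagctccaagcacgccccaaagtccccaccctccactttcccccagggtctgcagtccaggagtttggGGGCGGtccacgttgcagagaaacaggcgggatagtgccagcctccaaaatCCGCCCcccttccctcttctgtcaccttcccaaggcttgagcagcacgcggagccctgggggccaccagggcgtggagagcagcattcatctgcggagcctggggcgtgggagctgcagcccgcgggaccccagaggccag

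The Col4a1 window shares 78 bases with that of Col4a2, while the windows of Col4a5 and Col4a6 share none. Base composition differed within the type IV family. The Col4a1 window holds 74% G and C and 37 CpG dinucleotides, that of Col4a5 52.7% and 11, and that of Col4a6 48.3% and 3. The Col4a4 window holds neither motif, so it has no capitals. Windows were at hand for 35 of the chain genes, 38 windows in all. GGGCGG, the core of the GC box, was in 23 of these 38 windows and in 35.6% of all 32817 windows in the RefSeq set; CCAAT was in 13 of 38 and in 37.4% of all, and TATAAA in 5 of 38 and in 13.6% of all. A match describes letters in a window and was not read as a binding site. Over the 20 libraries, which share cell type and culture within groups, the Pearson correlation of log2 CPM was 0.963 for Col4a1 with Col4a2, 0.969 for Col4a3 with Col4a4, 0.845 for Col4a5 with Col4a6, and 0.983 for Col6a5 with Col6a6. Nearness did not always go with a shared pattern: for Col3a1 and Col5a2, which lie tail to tail on chromosome 1 with a gap of 24624 bases, it was -0.162.

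Collagen transcripts had their highest mean in PMSC and their lowest in HSC. The 44 chains summed to 16105, 16967, 14608 and 21379 TPM in PMSC. In the cultures from PMSC the sum was 6204, 7306, 6202 and 6001 TPM at 3d and 14757, 11033, 13480.5 and 13861 TPM at 7d. They summed to 7068, 7529.7, 7291 and 7638 TPM in HSC-MF-7d and to 3817, 5361, 5232 and 4459 TPM in HSC. PMSC and HSC did not overlap, nor did PMSC-MF-3d and PMSC, whereas PMSC-MF-7d and PMSC did. Summed per kb with TMM scaling, PMSC-MF-7d (4933 to 6220) lay below PMSC (9073 to 12222) without overlap. The ratio of group means was 3.66 for PMSC over HSC, 0.372 for PMSC-MF-3d over PMSC, 0.769 for PMSC-MF-7d over PMSC, 2.07 for PMSC-MF-7d over PMSC-MF-3d, 1.56 for HSC-MF-7d over HSC and 1.80 for PMSC-MF-7d over HSC-MF-7d. PMSC-MF-3d, at a mean of 6428 TPM, lay lower than HSC-MF-7d, at a mean of 7382 TPM, with overlap. The time in culture of HSC-MF-7d is uncertain. No test was made on the summed TPM. In bulk RNA, fewer cells of a type and less RNA per cell cannot be told apart.

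**Figure D1:**
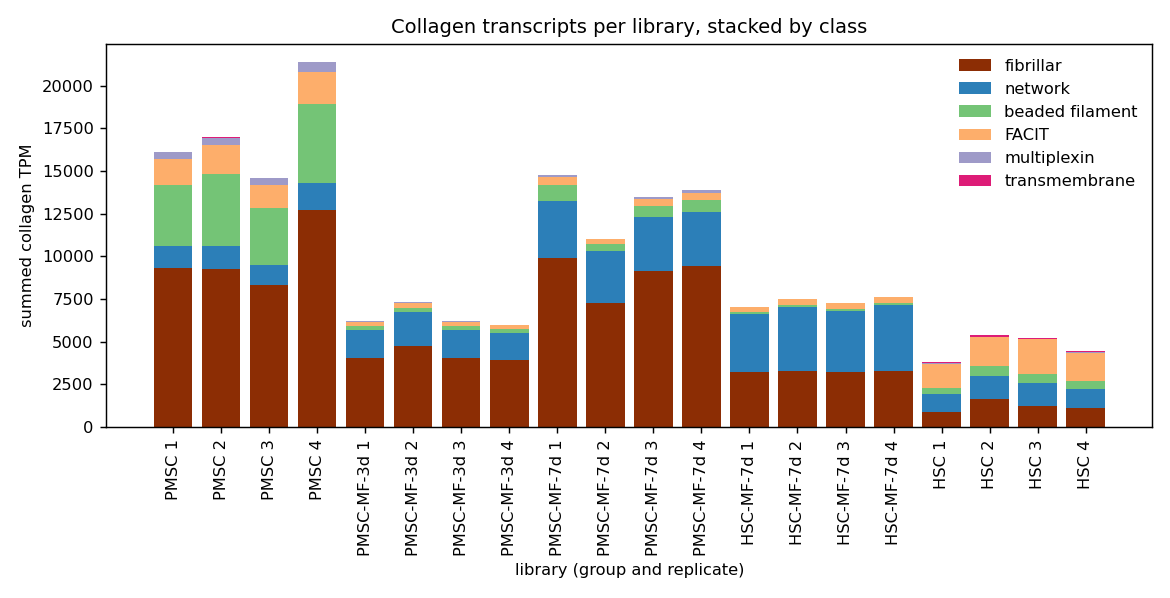
Summed collagen transcripts in each of the 20 libraries, in TPM on a linear axis from 0, stacked by class; groups run PMSC, PMSC-MF-3d, PMSC-MF-7d, HSC-MF-7d and HSC. PMSC libraries reach 14608 to 21379 TPM and HSC libraries 3817 to 5361 TPM, with beaded-filament chains visible mainly in PMSC and FACIT chains taking the widest band in HSC.

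Fibrillar chains were 57.2 ± 2.12% of collagen TPM in PMSC cells, 65.1 ± 0.449% in PMSC-MF-3d cultures and 67.2 ± 1.12% in PMSC-MF-7d, against 43.8 ± 1.17% in HSC-MF-7d and 25.4 ± 3.69% in HSC (mean ± SD, n = 4 here and for the shares that follow). Network chains, which are mostly type IV, were 7.92 ± 0.343% in PMSC cells, 26.5 ± 0.478% in PMSC-MF-3d cultures, 24.2 ± 2.45% in PMSC-MF-7d, 49.7 ± 1.22% in HSC-MF-7d and 26.1 ± 1.13% in HSC. So the network share of HSC-MF-7d was above that of every other group, and the fibrillar share was highest in the PMSC-derived myofibroblasts. Beaded-filament chains were 22.9 ± 1.39% of the pool in PMSC and 3.71 ± 0.101%, 4.87 ± 1.05% and 1.41 ± 0.0826% in PMSC-MF-3d, PMSC-MF-7d and HSC-MF-7d, with 10.04 ± 0.966% in HSC. FACIT chains were 36.0 ± 3.40% in HSC, of which Col14a1 alone gave 34.4% ± 3.39, and at most 9.23 ± 0.688% in any other group, in PMSC. Leading chains by TPM were Col1a2, Col3a1 and Col1a1 in PMSC, whose libraries overlapped from the first to the second and from the second to the third place. They were Col1a1 and Col1a2 in PMSC-MF-3d and PMSC-MF-7d, Col4a1 and Col5a2 in HSC-MF-7d, and Col14a1 and Col4a1 in HSC. The number of chains with a group mean over 10 TPM was 25 in PMSC cells, 17 in PMSC-MF-3d cultures, 20 in PMSC-MF-7d, 17 in HSC-MF-7d and 14 in HSC.

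Between the source cells, PMSC and HSC, 32 of the 41 tested chains were higher in PMSC than in HSC and 4 were lower (edgeR quasi-likelihood test, adjusted p < 0.05 over all genes). Over all 14751 tested genes, 33.6% were higher and 40.1% lower, 73.7% in all. The chains' median log2 fold change was 3.02, against -0.10 over all genes. In PMSC-MF-3d, 5 chains were higher and 31 lower than in PMSC (all genes: 37.2% higher, 41.1% lower, 78.3% either way), with a median of -3.32 against -0.069. In PMSC-MF-7d, 18 were higher and 3 lower than in PMSC-MF-3d (all genes: 18.6%, 17.4% and 36.0%), with a median of 0.65 against 0.0045. Against PMSC, 11 were higher and 26 lower in PMSC-MF-7d (all genes: 38.1%, 39.0% and 77.0%), with a median of -2.91 against -0.0019. In HSC-MF-7d, 13 were higher and 18 lower than in HSC (all genes: 36.0%, 38.5% and 74.5%), shares near those over all genes, with a median of -0.78 against -0.029. Between the myofibroblasts, 22 were higher and 6 lower in PMSC-MF-7d than in HSC-MF-7d (all genes: 23.9%, 23.1% and 47.1%), with a median of 1.33 against 0. In a second set of medians, chains with 0 counts in 1 of the compared groups were put at their bound. Chains with too few counts for a fold were left out. These medians were 3.09, -3.32, 0.80, -2.91, -0.78 and 1.23 in the same order. Library totals in place of TMM moved the median over all genes to -0.44 for PMSC against HSC, to 0.41 for PMSC-MF-3d against PMSC and to 0.43 for PMSC-MF-7d against PMSC. Of all called genes, 33.3%, 61.7% and 63.5% were then higher, against 45.6%, 47.5% and 49.4% with TMM; of the called chains, 88.6%, 21.6% and 31.6%, against 88.9%, 13.9% and 29.7%. Comparisons that share a group are not independent of each other.

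**Figure D2:**
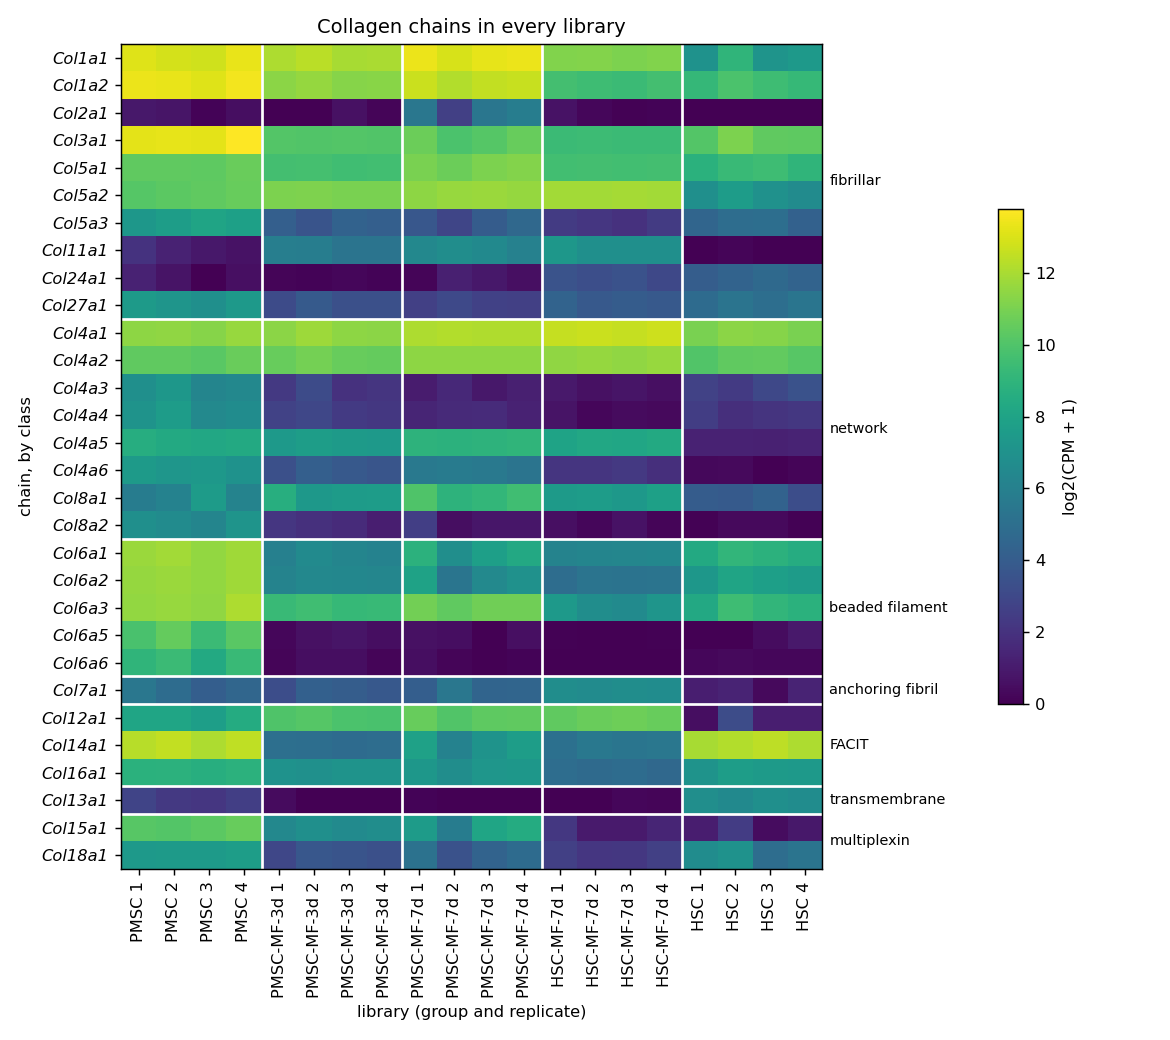
Level of the 30 chains with a group mean of at least 20 CPM and at least 1 call, as log2(CPM + 1), in the 20 libraries; rows are chains ordered by class and columns run PMSC, PMSC-MF-3d, PMSC-MF-7d, HSC-MF-7d and HSC. Col1a1, Col1a2 and Col3a1 are among the brightest rows in PMSC, Col6a5 and Col6a6 are dark outside PMSC, and Col13a1 is brightest in HSC.

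Of the 11 fibrillar chains, 10 were higher and 1 lower in PMSC than in HSC (all genes: 33.6% and 40.1%). Between the myofibroblasts, 6 were higher and 2 lower in PMSC-MF-7d than in HSC-MF-7d (all genes: 23.9% and 23.1%). In culture, 4 were higher and 5 lower in PMSC-MF-7d than in PMSC (all genes: 38.1% and 39.0%). In HSC-MF-7d against HSC, 4 were higher and 4 lower (all genes: 36.0% and 38.5%). The culture counts are near the shares over all genes. Col1a1 and Col1a2 encode the chains of type I collagen, the main fibril of bone, skin and scar. Col1a1 had 8965, 7634, 6979 and 10074 CPM in PMSC cells, 4326, 5213, 4004 and 4116 CPM in PMSC-MF-3d cultures and 10696, 7948, 9860.4 and 10746 CPM in PMSC-MF-7d. It had 2269, 2366, 2159.8 and 2347 CPM in HSC-MF-7d and 129, 516, 137 and 173 CPM in HSC. PMSC and PMSC-MF-7d overlapped for Col1a1, PMSC-MF-3d lay below both, and all HSC libraries lay below all others. Within HSC, replicate 2 stood above the rest. Col1a1 had a log2 fold change of 5.14 ± 0.36 (adjusted p = 1.67e-10) in PMSC against HSC, 3.26 ± 0.33 (adjusted p = 2.78e-08) in HSC-MF-7d against HSC and 2.10 ± 0.31 (adjusted p = 1.73e-05) in PMSC-MF-7d against HSC-MF-7d (± SE here and below). Without HSC replicate 2, the PMSC against HSC value was 5.84 and the HSC-MF-7d against HSC value 3.98. That library also had the highest portal fibroblast marker sum of its group (27.9, 58.2, 37.4 and 41.7 CPM in HSC replicates 1 to 4), and the part of such cells in its Col1a1 level was not tested. Col1a1 was lower in PMSC-MF-3d than in PMSC (-0.93 ± 0.30, adjusted p = 0.00913), a call lost with library totals (-0.42, adjusted p = 0.209). In PMSC-MF-7d against PMSC it was 0.22 ± 0.30 (adjusted p = 0.511), and 0.68 (adjusted p = 0.0498) with library totals.

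Col1a2 had 10693, 10114, 8819 and 11902 CPM in PMSC cells, 2661, 3106, 2491 and 2618 CPM in PMSC-MF-3d cultures and 6449, 4772, 5829 and 6324 CPM in PMSC-MF-7d. It had 803, 724, 668 and 822 CPM in HSC-MF-7d and 583, 939, 711 and 598 CPM in HSC. PMSC lay above all other groups for Col1a2, and HSC-MF-7d overlapped HSC. Its log2 fold change was 3.87 ± 0.16 (adjusted p = 6.71e-14) in PMSC against HSC, -0.83 ± 0.14 (adjusted p = 2.48e-05) in PMSC-MF-7d against PMSC and 0.093 ± 0.14 (adjusted p = 0.561) in HSC-MF-7d against HSC. So in HSC-MF-7d Col1a1 rose while Col1a2 did not pass the test. Type I collagen is usually assembled from more of the Col1a1 than of the Col1a2 chain. The TPM ratio of Col1a1 to Col1a2 was 0.734, 0.661, 0.693 and 0.742 in PMSC cells, 1.42, 1.47, 1.41 and 1.38 in PMSC-MF-3d cultures and 1.45, 1.46, 1.48 and 1.49 in PMSC-MF-7d. It was 2.48, 2.86, 2.83 and 2.501 in HSC-MF-7d and 0.194, 0.482, 0.169 and 0.254 in HSC. Ratios in all 12 libraries of cultured cells thus lay above 1, and ratios in all 8 libraries of PMSC and HSC lay below 1.

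Col3a1 encodes the chain of type III collagen, which runs in fibrils with type I in soft tissue. Col3a1 had 9444, 9835, 9379 and 14095 CPM in PMSC cells, 1091, 1070.3, 1085 and 1039.6 CPM in PMSC-MF-3d cultures and 1649, 940.0, 1149.8 and 1503 CPM in PMSC-MF-7d. It had 671, 691, 679.9 and 683 CPM in HSC-MF-7d and 1090.5, 2157, 1366 and 1305 CPM in HSC. PMSC stood far above the rest, the 3 cultured groups were at or near the level of HSC or below it, and HSC-MF-7d lay below HSC without overlap. Col3a1 had a log2 fold change of 2.85 ± 0.20 (adjusted p = 1.48e-10) in PMSC against HSC, -3.03 ± 0.20 (adjusted p = 4.13e-11) in PMSC-MF-7d against PMSC, -1.12 ± 0.19 (adjusted p = 2.27e-05) in HSC-MF-7d against HSC and 0.29 ± 0.19 (adjusted p = 0.243) in PMSC-MF-7d against PMSC-MF-3d. As a TPM ratio, Col3a1 to Col1a1 was 1.36 ± 0.162 in PMSC cells, 0.262 ± 0.0299 in PMSC-MF-3d cultures, 0.141 ± 0.0193 in PMSC-MF-7d, 0.319 ± 0.0119 in HSC-MF-7d and 8.04 ± 2.61 in HSC (SD, n = 4). Col3a1 transcripts thus outnumbered those of Col1a1 in every PMSC and HSC library, and the reverse held in every cultured library.

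**Figure D3:**
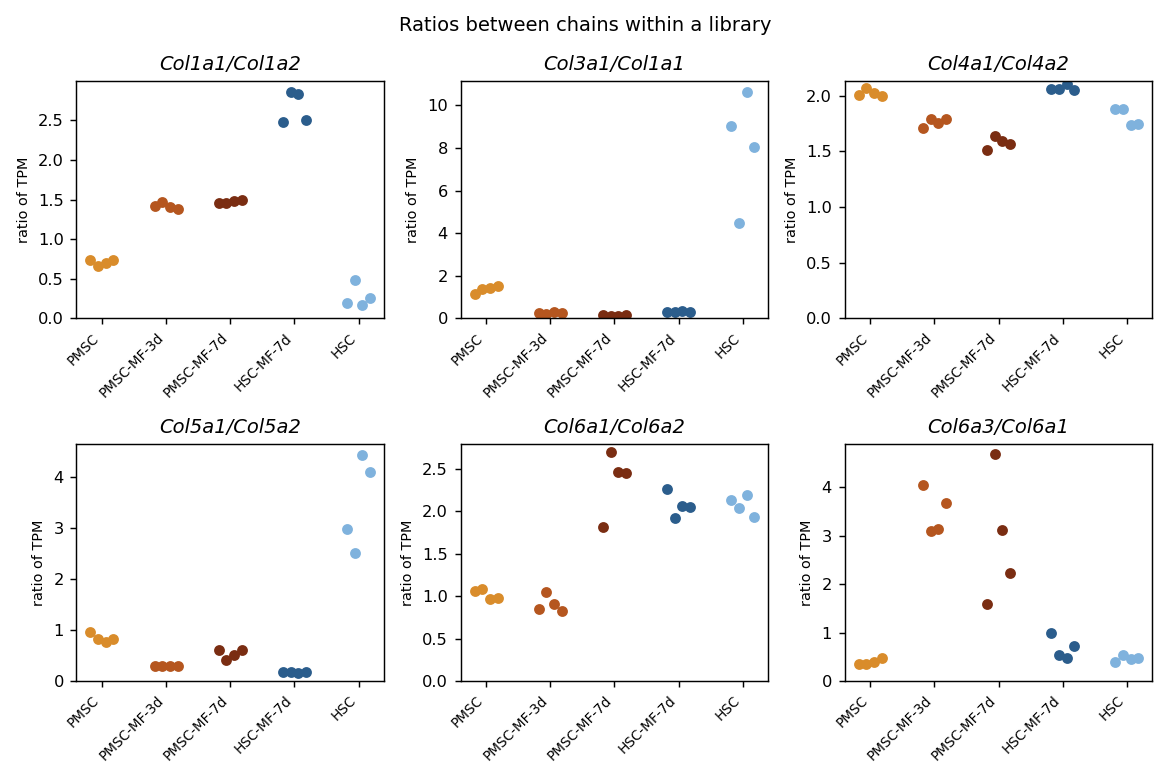
TPM ratio of 6 pairs of chains in each library, 1 panel a pair on a linear axis from 0, with groups in the order PMSC, PMSC-MF-3d, PMSC-MF-7d, HSC-MF-7d and HSC and a dot for each library. Col1a1 to Col1a2 averages 0.708 ± 0.0376 in PMSC cells and 1.47 ± 0.0173 in PMSC-MF-7d (SD), whereas Col4a1 to Col4a2 stays between 1.58 ± 0.0512 in PMSC-MF-7d and 2.07 ± 0.0229 in HSC-MF-7d.

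Type V collagen is built into type I fibrils and limits their width, and Col5a1, Col5a2 and Col5a3 encode its chains. Col5a1 had 1387, 1358, 1325 and 1597 CPM in PMSC cells, 804, 829.6, 756 and 769.7 CPM in PMSC-MF-3d cultures and 2093, 1645, 2135 and 2412 CPM in PMSC-MF-7d. It had 792, 815, 776 and 805 CPM in HSC-MF-7d and 439.7, 636, 715 and 524 CPM in HSC. PMSC-MF-7d lay above every other group for Col5a1, and the other values spread over a narrower range than for types I and III. Its log2 fold change was 1.29 ± 0.13 (adjusted p = 2.04e-08) in PMSC against HSC, 0.55 ± 0.13 (adjusted p = 0.000551) in PMSC-MF-7d against PMSC and 0.46 ± 0.13 (adjusted p = 0.00255) in HSC-MF-7d against HSC. Col5a2 had 1140.2, 1291, 1362 and 1535 CPM in PMSC cells, 2138, 2260.4, 2031 and 2027 CPM in PMSC-MF-3d cultures and 2739.6, 3189, 3289.9 and 3135 CPM in PMSC-MF-7d. It had 3717, 3747, 3908 and 3682 CPM in HSC-MF-7d and 116, 199, 126 and 100.2 CPM in HSC. Here the order was different: HSC-MF-7d was highest and HSC lowest, and both PMSC-derived groups lay above PMSC. Col5a2 had a log2 fold change of 4.80 ± 0.17 (adjusted p = 1.07e-14) in HSC-MF-7d against HSC, 1.21 ± 0.15 (adjusted p = 3.86e-07) in PMSC-MF-7d against PMSC and 3.30 ± 0.16 (adjusted p = 7.84e-13) in PMSC against HSC. Between the myofibroblasts it was -0.29 ± 0.15 (adjusted p = 0.121), with all 4 HSC-MF-7d libraries above those of PMSC-MF-7d. The TPM ratio of Col5a1 to Col5a2 was 0.292 ± 0.00425 in PMSC-MF-3d cultures, 0.527 ± 0.0934 in PMSC-MF-7d and 0.166 ± 0.00722 in HSC-MF-7d, against 0.836 ± 0.0808 in PMSC cells and 3.497 ± 0.910 in HSC. Col5a3 had 156, 203, 263 and 228 CPM in PMSC cells, 16.7, 10.9, 18.9 and 17.1 CPM in PMSC-MF-3d cultures and 12.3, 6.28, 15.0 and 24.2 CPM in PMSC-MF-7d. It had 4.31, 3.55, 2.86 and 4.36 CPM in HSC-MF-7d and 21.5, 29.2, 30.8 and 18.4 CPM in HSC. PMSC was highest for Col5a3 and each 7d culture lay below its source cells, at log2 fold changes of -3.87 ± 0.31 (adjusted p = 6.3e-10) for PMSC-MF-7d and -2.72 ± 0.32 (adjusted p = 2.46e-07) for HSC-MF-7d.

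The remaining fibrillar chains were low. Col11a1, a chain of type XI collagen and best known from cartilage, had 2.99, 1.52, 0.836 and 0.581 CPM in PMSC cells, 59.6, 56.4, 38.2 and 39.2 CPM in PMSC-MF-3d cultures and 86.9, 108, 93.4 and 64.4 CPM in PMSC-MF-7d. It had 156, 116, 114 and 116 CPM in HSC-MF-7d and 0, 0.119, 0 and 0 CPM in HSC. It was near 0 in both source groups and between 38.2 and 156 CPM in all 12 cultured libraries. Against PMSC, the log2 fold change of Col11a1 was 4.999 ± 0.32 (adjusted p = 2.7e-11) in PMSC-MF-3d and 5.87 ± 0.33 (adjusted p = 3.48e-12) in PMSC-MF-7d, or 5.61 and 6.48 without PMSC replicate 1. HSC held 2 counts, so HSC-MF-7d was higher than HSC by 4216-fold (95% counting interval 1167 to 34816), or at least 2105-fold without HSC replicate 2, which held both counts. Col2a1, the cartilage fibril chain, had 0.865, 0.695, 0.104 and 0.407 CPM in PMSC cells, 0, 0, 0.514 and 0.150 CPM in PMSC-MF-3d cultures and 42.9, 5.02, 41.5 and 56.0 CPM in PMSC-MF-7d. It had 0.578, 0.203, 0.0681 and 0.106 CPM in HSC-MF-7d and 0, 0, 0 and 0 CPM in HSC. Only PMSC-MF-7d passed 1 CPM, with replicate 2 far below the other 3. Its log2 fold change was 7.71 ± 0.88 (adjusted p = 5.15e-06) in PMSC-MF-7d against PMSC-MF-3d, and 9.33 without PMSC-MF-3d replicate 3. HSC held no count of Col2a1 and HSC-MF-7d held 18, of which 11 were in replicate 1; in HSC-MF-7d against HSC it did not pass the test (adjusted p = 0.0665).

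Col24a1 and Col27a1 encode fibrillar chains with a shorter helix. Col24a1 had 1.46, 0.631, 0 and 0.465 CPM in PMSC cells, 0.152, 0.112, 0.183 and 0.113 CPM in PMSC-MF-3d cultures and 0.145, 1.30, 0.880 and 0.459 CPM in PMSC-MF-7d. It had 10.4, 8.87, 10.3 and 6.85 CPM in HSC-MF-7d and 16.0, 19.97, 25.5 and 19.9 CPM in HSC. It was the single fibrillar chain lower in PMSC than in HSC, at -4.90 ± 0.52 (adjusted p = 7.06e-08), or -5.62 without PMSC replicate 1. It fell to 9.10 ± 1.66 CPM in HSC-MF-7d, against 20.4 ± 3.92 CPM in HSC (log2 fold change -1.16 ± 0.42, adjusted p = 0.0166), and without HSC-MF-7d replicate 4 the adjusted p was 0.0561. Col27a1 had 182, 144, 118 and 176 CPM in PMSC cells, 7.88, 14.1, 9.46 and 9.40 CPM in PMSC-MF-3d cultures and 5.10, 7.18, 5.46 and 5.16 CPM in PMSC-MF-7d. It had 19.7, 13.3, 15.4 and 13.4 CPM in HSC-MF-7d and 27.6, 38.9, 31.1 and 39.9 CPM in HSC. PMSC was highest, and Col27a1 fell in both cultures, with a log2 fold change of -4.76 ± 0.21 (adjusted p = 1.15e-13) in PMSC-MF-7d against PMSC and of -1.15 ± 0.19 (adjusted p = 1.52e-05) in HSC-MF-7d against HSC. PMSC-MF-7d ended below HSC-MF-7d (-1.43 ± 0.20, adjusted p = 5.91e-06), although PMSC lay above HSC (2.17 ± 0.19, adjusted p = 3.15e-09). Col11a2, a type XI chain, reached a group mean of 12.9 CPM, in PMSC.

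Among network chains, 7 of 9 were higher in PMSC than in HSC (all genes: 33.6%) and the other 2 did not pass the test. In PMSC-MF-7d against PMSC, 5 were higher and 4 lower (all genes: 38.1% and 39.0%). In HSC-MF-7d against HSC, 6 were higher and 2 lower (all genes: 36.0% and 38.5%). Col4a1 and Col4a2 encode the chains of the common basement membrane collagen. Col4a1 had 2785, 2929, 2529 and 3258 CPM in PMSC cells, 2723, 3452, 2780.5 and 2714 CPM in PMSC-MF-3d cultures and 4306, 4725, 4569 and 4538 CPM in PMSC-MF-7d. It had 6066, 6595, 6174 and 6776 CPM in HSC-MF-7d and 2059.9, 2665, 2509 and 2087 CPM in HSC. HSC-MF-7d lay above every other group and PMSC-MF-7d came next. PMSC and HSC overlapped. Col4a1 had a log2 fold change of 1.46 ± 0.11 (adjusted p = 1.8e-10) in HSC-MF-7d against HSC, 0.66 ± 0.10 (adjusted p = 9.82e-06) in PMSC-MF-7d against PMSC and -0.50 ± 0.10 (adjusted p = 0.00054) in PMSC-MF-7d against HSC-MF-7d. In PMSC against HSC it was 0.30 ± 0.10 (adjusted p = 0.0127), which was -0.036 with library totals (adjusted p = 0.744), and without PMSC replicate 4 the adjusted p was 0.0522. Col4a2 had 1349, 1377, 1219.5 and 1592 CPM in PMSC cells, 1551, 1879.8, 1541 and 1473 CPM in PMSC-MF-3d cultures and 2772, 2814, 2795 and 2822 CPM in PMSC-MF-7d. It had 2869, 3122, 2861 and 3215 CPM in HSC-MF-7d and 1069, 1378, 1404 and 1167 CPM in HSC. It followed Col4a1, with log2 fold changes of 1.27 ± 0.10 (adjusted p = 1.03e-09) in HSC-MF-7d against HSC and 1.02 ± 0.10 (adjusted p = 2.16e-08) in PMSC-MF-7d against PMSC. In PMSC against HSC, Col4a2 was at 0.14 ± 0.10 (adjusted p = 0.211). Sinusoidal endothelial cells, whose markers summed to 68.2 to 199.8 CPM in PMSC and to 5851 to 6905 CPM in HSC, are also known to make type IV collagen, and their part in these levels was not tested. In PMSC-MF-3d against PMSC, Col4a1 was at 0.021 ± 0.10 (adjusted p = 0.864) and Col4a2 at 0.22 ± 0.10 (adjusted p = 0.0552). With library totals both were higher in PMSC-MF-3d, at 0.53 (adjusted p = 4.37e-05) and 0.73 (adjusted p = 8.98e-07).

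The chains of the other type IV networks separated the source cells, PMSC and HSC, more widely, but not all of them separated the myofibroblasts. Col4a5, whose chain enters the networks of kidney and smooth muscle basement membranes and is affected in human Alport syndrome, had 383, 333, 306 and 328 CPM in PMSC cells, 172, 206, 183 and 168 CPM in PMSC-MF-3d cultures and 474, 469.6, 485 and 512 CPM in PMSC-MF-7d. It had 252, 305, 286 and 327 CPM in HSC-MF-7d and 1.51, 1.49, 1.38 and 1.63 CPM in HSC. HSC was between 1.38 and 1.63 CPM, far below the lowest other library. Col4a5 had a log2 fold change of 7.81 ± 0.13 (adjusted p = 1.43e-19) in PMSC against HSC and 7.603 ± 0.13 (adjusted p = 2.14e-19) in HSC-MF-7d against HSC, while PMSC-MF-7d differed from PMSC by 0.52 ± 0.087 (adjusted p = 1.89e-05). Col4a6, which lies head to head with Col4a5, had 182, 152, 159.5 and 130.3 CPM in PMSC cells, 9.28, 17.02, 13.2 and 11.6 CPM in PMSC-MF-3d cultures and 47.1, 53.2, 47.4 and 39.1 CPM in PMSC-MF-7d. It had 3.37, 3.29, 3.95 and 2.60 CPM in HSC-MF-7d and 0.241, 0.298, 0 and 0.131 CPM in HSC. It was highest in PMSC, and HSC-MF-7d stayed below every PMSC and PMSC-derived library. Col4a6 had a log2 fold change of 9.83 ± 0.31 (adjusted p = 3.04e-15) in PMSC against HSC, 4.27 ± 0.38 (adjusted p = 4.36e-09) in HSC-MF-7d against HSC and 3.83 ± 0.21 (adjusted p = 3.68e-11) in PMSC-MF-7d against HSC-MF-7d. Thus the neighbours did not keep one proportion: the TPM ratio of Col4a5 to Col4a6 was 2.17, 2.26, 1.98 and 2.59 in PMSC cells, 19.0, 12.4, 14.2 and 14.9 in PMSC-MF-3d cultures, 10.4, 9.09, 10.5 and 13.5 in PMSC-MF-7d and 77.0, 95.1, 74.5 and 129.7 in HSC-MF-7d. Col4a1 to Col4a2, with overlapping 5′ ends, was 2.01, 2.07, 2.02 and 1.99 in PMSC cells, 1.71, 1.79, 1.76 and 1.79 in PMSC-MF-3d cultures, 1.51, 1.64, 1.59 and 1.57 in PMSC-MF-7d, 2.06, 2.06, 2.10 and 2.05 in HSC-MF-7d and 1.88, 1.88, 1.74 and 1.74 in HSC.

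Col4a3 and Col4a4, whose chains join that of Col4a5 in the glomerular basement membrane, were high in PMSC and low elsewhere. Col4a3 had 116, 155, 76.7 and 83.9 CPM in PMSC cells, 3.84, 7.72, 2.90 and 3.35 CPM in PMSC-MF-3d cultures and 1.05, 2.04, 0.880 and 1.31 CPM in PMSC-MF-7d. It had 0.894, 0.557, 0.749 and 0.478 CPM in HSC-MF-7d and 5.49, 3.99, 6.82 and 10.3 CPM in HSC. Its log2 fold change was 4.03 ± 0.33 (adjusted p = 1.79e-09) in PMSC against HSC, -6.36 ± 0.38 (adjusted p = 9.6e-12) in PMSC-MF-7d against PMSC and -3.30 ± 0.43 (adjusted p = 8.56e-07) in HSC-MF-7d against HSC. Col4a4 had 136, 197, 88.9 and 101 CPM in PMSC cells, 5.55, 6.60, 4.15 and 3.69 CPM in PMSC-MF-3d cultures and 1.74, 2.08, 2.24 and 1.52 CPM in PMSC-MF-7d. It had 0.631, 0.203, 0.341 and 0.266 CPM in HSC-MF-7d and 4.65, 2.68, 3.14 and 3.73 CPM in HSC. Both genes had PMSC replicate 2 as their highest library, and both fell in each culture. Col4a4 had a log2 fold change of 5.20 ± 0.27 (adjusted p = 2.54e-12) in PMSC against HSC, -6.11 ± 0.29 (adjusted p = 2.35e-13) in PMSC-MF-7d against PMSC and -3.28 ± 0.39 (adjusted p = 3.1e-07) in HSC-MF-7d against HSC. Between PMSC-MF-7d and HSC-MF-7d, Col4a4 differed by 2.37 ± 0.41 (adjusted p = 8.43e-05) and Col4a3 by 0.97 ± 0.48 (adjusted p = 0.107).

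Col8a1 and Col8a2 encode the short chains of type VIII collagen, known from blood vessel walls and the cornea. Col8a1 had 53.3, 66.9, 187 and 69.8 CPM in PMSC cells, 401, 162, 190.4 and 196 CPM in PMSC-MF-3d cultures and 1009.7, 473, 568 and 763 CPM in PMSC-MF-7d. It had 183, 193, 164 and 227 CPM in HSC-MF-7d and 15.4, 13.9, 19.1 and 8.69 CPM in HSC. PMSC replicate 3 and PMSC-MF-3d replicate 1 stood above the others of their groups. Col8a1 rose in both cultures, with a log2 fold change of 2.91 ± 0.38 (adjusted p = 8.26e-07) in PMSC-MF-7d against PMSC and of 3.74 ± 0.40 (adjusted p = 6.02e-08) in HSC-MF-7d against HSC. Col8a2 had 115, 100.5, 77.3 and 137 CPM in PMSC cells, 3.58, 2.70, 2.24 and 1.24 CPM in PMSC-MF-3d cultures and 4.96, 0.408, 0.806 and 0.778 CPM in PMSC-MF-7d. It had 0.473, 0.203, 0.613 and 0.159 CPM in HSC-MF-7d and 0.0604, 0.298, 0.275 and 0.0654 CPM in HSC. It went the opposite way in the PMSC lineage, at -5.93 ± 0.52 (adjusted p = 3.44e-09) in PMSC-MF-7d against PMSC, or -7.29 without PMSC-MF-7d replicate 1. Col8a2 was 9.18 ± 0.71 (adjusted p = 6.53e-10) in PMSC against HSC. Its difference between PMSC-MF-7d and HSC-MF-7d, 2.31 ± 0.74 (adjusted p = 0.0147), rested on that library, with an adjusted p of 0.168 without it. Col10a1, the network chain of hypertrophic cartilage, had no count in PMSC or HSC and a group mean of at most 0.716 CPM, in PMSC-MF-7d.

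Type VI collagen forms beaded filaments close to cells, from the Col6a1 and Col6a2 chains and a longer partner chain. Of the 6 genes, 5 were higher in PMSC than in HSC (all genes: 33.6%). All 6 were lower in PMSC-MF-7d than in PMSC (39.0%), and 5 were lower in HSC-MF-7d than in HSC (38.5%). The remaining gene was Col6a4 in the first of these comparisons and Col6a5 in the last, and neither passed the test there. Col6a1 had 3381, 3811, 3029 and 3651 CPM in PMSC cells, 64.0, 94.3, 76.7 and 67.4 CPM in PMSC-MF-3d cultures and 464, 113, 222 and 318 CPM in PMSC-MF-7d. It had 70.1, 77.7, 80.5 and 83.2 CPM in HSC-MF-7d and 327, 543, 470.2 and 369 CPM in HSC. PMSC lay far above all other libraries, and PMSC-MF-7d replicate 2 was the lowest of its group. Col6a1 had a log2 fold change of 3.02 ± 0.29 (adjusted p = 1.59e-08) in PMSC against HSC, -5.52 ± 0.33 (adjusted p = 6.93e-12) in PMSC-MF-3d against PMSC, 1.89 ± 0.28 (adjusted p = 3.35e-05) in PMSC-MF-7d against PMSC-MF-3d and -2.46 ± 0.28 (adjusted p = 1.95e-07) in HSC-MF-7d against HSC. Col6a2 had 3080.4, 3409, 3023 and 3595 CPM in PMSC cells, 71.7, 86.1, 81.7 and 78.4 CPM in PMSC-MF-3d cultures and 247, 40.2, 87.9 and 125 CPM in PMSC-MF-7d. It had 29.7, 38.9, 37.5 and 39.0 CPM in HSC-MF-7d and 153, 267, 216 and 192 CPM in HSC. It followed Col6a1, with a correlation of 0.969 over the 20 libraries, and its log2 fold change was 3.98 ± 0.36 (adjusted p = 6.68e-09) in PMSC against HSC and -4.71 ± 0.37 (adjusted p = 6.53e-10) in PMSC-MF-7d against PMSC. In PMSC-MF-7d against PMSC-MF-3d, Col6a2 was at 0.65 ± 0.32 (adjusted p = 0.124), and at 0.95 (adjusted p = 0.00568) without PMSC-MF-7d replicate 2. That library also had the lowest portal fibroblast marker sum, at 1011, 462, 766 and 905 CPM in PMSC-MF-7d replicates 1 to 4, and the part of this in its collagen levels was not tested.

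Col6a3, the longest classical chain of type VI, fell less in PMSC-MF-7d against PMSC than in HSC-MF-7d against HSC. In PMSC-MF-3d against PMSC its log2 fold change was -2.33, a larger fall than the -1.96 in HSC-MF-7d against HSC. The time in culture of HSC-MF-7d is uncertain, so this order depends on the label followed. Col6a3 had 2952, 3243, 2853 and 4273 CPM in PMSC cells, 657, 748, 611 and 635 CPM in PMSC-MF-3d cultures and 1862, 1358, 1784 and 1808 CPM in PMSC-MF-7d. It had 173, 107, 96.0 and 147 CPM in HSC-MF-7d and 321, 733, 542 and 447 CPM in HSC. Every PMSC-MF-7d library had more Col6a3 than every HSC-MF-7d library. Col6a3 had a log2 fold change of -0.97 ± 0.21 (adjusted p = 0.000386) in PMSC-MF-7d against PMSC, -1.96 ± 0.22 (adjusted p = 1.11e-07) in HSC-MF-7d against HSC and 3.70 ± 0.23 (adjusted p = 2.5e-10) in PMSC-MF-7d against HSC-MF-7d. As a TPM ratio, Col6a3 to Col6a1 was 3.49 ± 0.458 in PMSC-MF-3d cultures and 2.90 ± 1.34 in PMSC-MF-7d, against 0.397 ± 0.0600 in PMSC, and it was 0.682 ± 0.231 in HSC-MF-7d, against 0.470 ± 0.0599 in HSC. Col6a5 and Col6a6 encode chains that can take the place of the Col6a3 chain. Col6a5 had 893, 1469, 672 and 1214 CPM in PMSC cells, 0.190, 0.562, 0.734 and 0.451 CPM in PMSC-MF-3d cultures and 0.543, 0.449, 0 and 0.459 CPM in PMSC-MF-7d. It had 0.0526, 0, 0 and 0.0531 CPM in HSC-MF-7d and 0, 0, 0.385 and 0.915 CPM in HSC. Col6a6 had 519, 672, 327 and 639 CPM in PMSC cells, 0.152, 0.450, 0.440 and 0.150 CPM in PMSC-MF-3d cultures and 0.434, 0.122, 0.0367 and 0.106 CPM in PMSC-MF-7d. It had 0, 0, 0 and 0 CPM in HSC-MF-7d and 0.181, 0.298, 0.165 and 0.196 CPM in HSC. Both were at 327 CPM or more in all PMSC libraries and under 1 CPM in the other 16, so PMSC stood alone. The log2 fold change in PMSC against HSC was 11.69 ± 0.54 (adjusted p = 3.72e-13) for Col6a5, or 12.86 without HSC replicate 4. For Col6a6 it was 11.29 ± 0.40 (adjusted p = 2.37e-13). In PMSC-MF-3d against PMSC it was -11.07 ± 0.50 (adjusted p = 1.34e-13) for Col6a5 and -10.79 ± 0.37 (adjusted p = 7.8e-14) for Col6a6. HSC-MF-7d held 2 counts of Col6a5 and none of Col6a6; Col6a5 was higher in PMSC-MF-7d by 13.1-fold (95% counting interval 3.39 to 112) and Col6a6 by at least 4.25-fold, or at least 2.10-fold without PMSC-MF-7d replicate 1. With 1 library left out, the adjusted p of Col6a5 (0.0469) reached 0.127 and that of Col6a6 (0.0252) reached 0.0911, so neither call held. Col6a4, which lies next to Col6a5, reached a group mean of 1.98 CPM, in PMSC.

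Col7a1 encodes the chain of the anchoring fibrils that fasten skin to its basement membrane. Col7a1 had 42.4, 28.04, 16.3 and 22.3 CPM in PMSC cells, 8.45, 17.5, 15.7 and 12.8 CPM in PMSC-MF-3d cultures and 16.4, 43.1, 20.7 and 21.8 CPM in PMSC-MF-7d. It had 109, 99.0, 109 and 105 CPM in HSC-MF-7d and 1.27, 1.61, 0.275 and 1.63 CPM in HSC. HSC-MF-7d was highest and HSC lowest. Col7a1 had a log2 fold change of 6.48 ± 0.43 (adjusted p = 5.74e-11) in HSC-MF-7d against HSC, 4.53 ± 0.42 (adjusted p = 9.43e-09) in PMSC against HSC and -2.05 ± 0.32 (adjusted p = 2.79e-05) in PMSC-MF-7d against HSC-MF-7d. In PMSC-MF-7d against PMSC it was -0.10 ± 0.31 (adjusted p = 0.773). Its drop in PMSC-MF-3d against PMSC (-1.01 ± 0.32, adjusted p = 0.00761) was lost with library totals (-0.49, adjusted p = 0.174).

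FACIT chains lie on the surface of fibrils. Of the 7 tested, 5 were higher in PMSC than in HSC (all genes: 33.6%) and the other 2 did not pass the test. In PMSC-MF-7d against PMSC, 2 were higher and 5 lower (all genes: 38.1% and 39.0%). In HSC-MF-7d against HSC, 2 were higher and 2 lower, not above the shares over all genes (36.0% and 38.5%). Col12a1 and Col14a1 encode related FACITs of dense connective tissue and moved in opposite directions in culture. Col12a1 had 269, 273, 211 and 359.7 CPM in PMSC cells, 1008, 1116, 928 and 911 CPM in PMSC-MF-3d cultures and 1544, 1071, 1324 and 1348 CPM in PMSC-MF-7d. It had 1389, 1616, 1703 and 1555 CPM in HSC-MF-7d and 0.422, 8.05, 1.21 and 1.24 CPM in HSC. All 12 cultured libraries lay above PMSC, and PMSC above HSC, where replicate 2 had the highest level. Col12a1 had a log2 fold change of 9.16 ± 0.55 (adjusted p = 1.26e-11) in HSC-MF-7d against HSC, or 10.68 without HSC replicate 2, and 2.25 ± 0.39 (adjusted p = 3.06e-05) in PMSC-MF-7d against PMSC. In PMSC-MF-7d against HSC-MF-7d it was -0.24 ± 0.37 (adjusted p = 0.626). Col14a1 had 5112, 5778, 4397 and 5706 CPM in PMSC cells, 31.7, 30.0, 26.8 and 29.4 CPM in PMSC-MF-3d cultures and 239, 68.1, 134 and 202 CPM in PMSC-MF-7d. It had 33.1, 45.5, 39.4 and 42.4 CPM in HSC-MF-7d and 4026, 4767, 5444 and 4426 CPM in HSC. PMSC and HSC overlapped, and every cultured library was at most 239 CPM. Col14a1 had a log2 fold change of 0.17 ± 0.24 (adjusted p = 0.529) in PMSC against HSC, -7.48 ± 0.32 (adjusted p = 5.62e-14) in PMSC-MF-3d against PMSC, -5.03 ± 0.28 (adjusted p = 3.54e-12) in PMSC-MF-7d against PMSC and -6.86 ± 0.31 (adjusted p = 2.17e-13) in HSC-MF-7d against HSC. Between 3d and 7d it rose in the PMSC lineage, to 161 ± 75.4 CPM in PMSC-MF-7d, against 29.5 ± 2.05 CPM in PMSC-MF-3d (2.45 ± 0.25, adjusted p = 5.94e-07). The TPM ratio of Col12a1 to Col14a1 was 18.2 ± 1.54 in PMSC-MF-3d cultures, 5.25 ± 2.34 in PMSC-MF-7d and 21.3 ± 2.07 in HSC-MF-7d, against 0.0286 ± 0.00395 in PMSC.

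**Figure D4:**
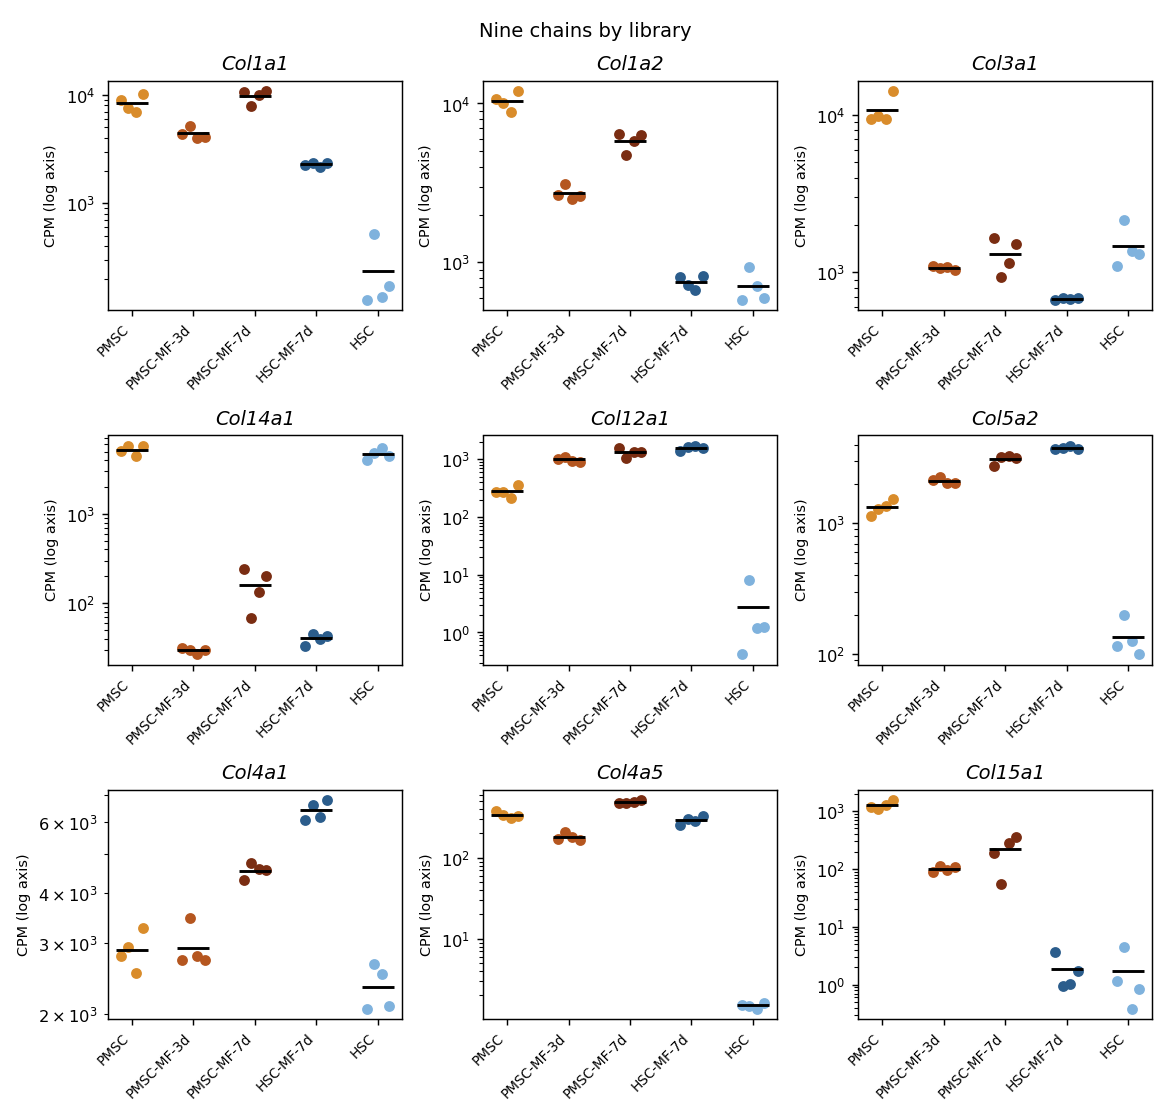
CPM of 9 chains in each library on log axes, with a dot for each library, a tick at the group mean, and groups in the order PMSC, PMSC-MF-3d, PMSC-MF-7d, HSC-MF-7d and HSC. Col14a1 averages 40.1 ± 5.28 CPM in HSC-MF-7d and 4666 ± 601 CPM in HSC (SD), while Col12a1 averages 1566 ± 133 CPM in HSC-MF-7d and 2.73 ± 3.56 CPM in HSC.

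Col16a1, a FACIT of skin and gut, had 451, 464, 401 and 463 CPM in PMSC cells, 129.9, 121, 134 and 134 CPM in PMSC-MF-3d cultures and 158, 105, 149 and 153 CPM in PMSC-MF-7d. It had 29.7, 26.2, 27.9 and 24.1 CPM in HSC-MF-7d and 134, 200.3, 183 and 169.7 CPM in HSC. HSC-MF-7d was lowest and PMSC highest, with no overlap between either and any other group. Col16a1 had a log2 fold change of 1.37 ± 0.12 (adjusted p = 5.09e-09) in PMSC against HSC, -1.65 ± 0.12 (adjusted p = 2.39e-10) in PMSC-MF-7d against PMSC and -2.67 ± 0.13 (adjusted p = 5.66e-13) in HSC-MF-7d against HSC. Other FACIT chains were low: group means reached 6.16 CPM for Col9a2, 6.71 CPM for Col9a3 and 6.78 CPM for Col20a1, each in PMSC, and 1.01 CPM for Col19a1, in PMSC-MF-7d. Col9a2 held 366 counts in PMSC and 1 in PMSC-MF-7d, where it was lower by 684-fold (95% counting interval 122 to 27080.2), or at least 168-fold without PMSC-MF-7d replicate 4, which held that count.

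Transmembrane collagens, which are anchored in the cell membrane, had the reverse pattern between source cells. In PMSC against HSC, 3 of 4 were lower and 1 higher (all genes: 40.1% and 33.6%). All 4 were lower in HSC-MF-7d than in HSC (all genes: 38.5%). Col13a1, a component of the neuromuscular junction and other cell contacts, had 5.99, 3.91, 3.55 and 4.94 CPM in PMSC cells, 0.342, 0.0375, 0 and 0 CPM in PMSC-MF-3d cultures and 0.109, 0, 0 and 0 CPM in PMSC-MF-7d. It had 0, 0, 0.204 and 0.159 CPM in HSC-MF-7d and 111, 91.8, 115 and 104 CPM in HSC. HSC stood alone, with all other libraries under 6 CPM. Col13a1 had a log2 fold change of -4.50 ± 0.32 (adjusted p = 1.74e-10) in PMSC against HSC and -10.20 ± 0.49 (adjusted p = 6.14e-13) in HSC-MF-7d against HSC, or -10.81 without HSC-MF-7d replicate 3. PMSC-MF-7d held 3 counts, lower than PMSC by 169-fold (95% counting interval 57.1 to 823). Col25a1, known from motor neuron targets, averaged 1.08 ± 1.13 CPM in PMSC cells and 6.31 ± 2.81 CPM in HSC. Col17a1, a hemidesmosome chain, averaged 0.394 ± 0.298 CPM in PMSC cells and 1.83 ± 0.681 CPM in HSC. Col23a1 was the chain higher in PMSC, at 16.9 ± 3.07 CPM against 2.77 ± 0.702 CPM in HSC (2.61 ± 0.40, adjusted p = 7.11e-06).

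Multiplexins are proteoglycans of the basement membrane zone. Both Col15a1 and Col18a1 were higher in PMSC than in HSC (all genes: 33.6%) and lower in PMSC-MF-7d than in PMSC (39.0%). Both were also higher in PMSC-MF-7d than in HSC-MF-7d (all genes: 23.9%). Col15a1 had 1172, 1102, 1253 and 1531 CPM in PMSC cells, 87.1, 114, 97.0 and 107 CPM in PMSC-MF-3d cultures and 188, 55.0, 279 and 363 CPM in PMSC-MF-7d. It had 3.73, 0.963, 1.02 and 1.70 CPM in HSC-MF-7d and 1.15, 4.41, 0.385 and 0.850 CPM in HSC. The lowest library of the PMSC lineage, PMSC-MF-7d replicate 2, was still above the highest of the HSC lineage. Col15a1 had a log2 fold change of 9.54 ± 0.66 (adjusted p = 1.53e-10) in PMSC against HSC, or 10.64 without HSC replicate 2. In PMSC-MF-7d against HSC-MF-7d it was 6.87 ± 0.60 (adjusted p = 2.02e-08), or 7.48 without HSC-MF-7d replicate 1, and in PMSC-MF-7d against PMSC -2.52 ± 0.46 (adjusted p = 5.77e-05). In HSC-MF-7d against HSC it was 0.15 ± 0.68 (adjusted p = 0.852). Col18a1, whose end fragment is released as endostatin, had 177, 181, 179 and 201 CPM in PMSC cells, 6.51, 12.6, 11.04 and 9.44 CPM in PMSC-MF-3d cultures and 35.0, 9.99, 19.9 and 27.2 CPM in PMSC-MF-7d. It had 5.15, 3.496, 3.68 and 5.15 CPM in HSC-MF-7d and 102, 131, 28.9 and 38.4 CPM in HSC. HSC split into 2 higher and 2 lower libraries for Col18a1. The 8 hepatocyte markers summed to 13412, 13325, 3166 and 4404 CPM in HSC replicates 1 to 4, in the same split; hepatocytes are known to make this chain, and their part in the HSC level was not tested. Col18a1 had a log2 fold change of 1.30 ± 0.38 (adjusted p = 0.0046) in PMSC against HSC, -3.0003 ± 0.40 (adjusted p = 1.33e-06) in PMSC-MF-7d against PMSC, -4.10 ± 0.45 (adjusted p = 8.7e-08) in HSC-MF-7d against HSC and 2.39 ± 0.43 (adjusted p = 0.000138) in PMSC-MF-7d against HSC-MF-7d. Of the 2 chains in no class, Col28a1 averaged 7.14 ± 6.61 CPM in PMSC, at least 176-fold higher than in HSC, which held no count, or at least 91.4-fold without PMSC replicate 4. Col26a1 had a group mean of at most 0.0131 CPM.

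Whether culture changed the chains alike in the 2 lineages was tested as a difference of changes, PMSC-MF-7d against PMSC minus HSC-MF-7d against HSC. For 23 of the 41 tested chains this difference was negative and for 4 positive, with 14 not called. Over all genes 29.2% were negative and 31.4% positive, 60.6% in all, and the median was -2.20 for the chains, against 0.10 over all genes. Library totals moved the median over all genes to 0.44; of all called genes 66.0% were then positive, against 51.8% with TMM, and of the called chains 22.2%, against 14.8%. All 8 called fibrillar chains and all 6 called network chains had a negative difference. A negative difference means that the chain rose less, or fell more, in the PMSC lineage than in the HSC lineage. Those furthest from 0 among chains with more than 3 counts in every group were Col4a5 (-7.08 ± 0.15, adjusted p = 2.19e-17), Col12a1 (-6.91 ± 0.61, adjusted p = 1.14e-08), Col8a2 (-6.87 ± 1.38, adjusted p = 0.000268) and Col7a1 (-6.58 ± 0.53, adjusted p = 3.1e-09). Without HSC replicate 2 the Col12a1 value was -8.40, and without PMSC-MF-7d replicate 1 the Col8a2 value was -8.24. Col8a2 held only 12 counts over HSC and 25 over HSC-MF-7d, so its change in the HSC lineage rests on few counts. Positive differences among the 30 chains described that passed the test were those of Col14a1 (1.83 ± 0.34, adjusted p = 0.000119), Col16a1 (1.02 ± 0.17, adjusted p = 4.08e-05) and Col6a3 (0.997 ± 0.30, adjusted p = 0.00723), each of which fell in both lineages. The time in culture of HSC-MF-7d is uncertain. In PMSC-MF-3d against PMSC, Col14a1 and Col6a3 fell more than in HSC-MF-7d against HSC, and Col16a1 fell less; no test was made of this. Of chains with more than 3 counts in every group, Col24a1 (1.19 ± 0.69, adjusted p = 0.147), Col18a1 (1.10 ± 0.57, adjusted p = 0.102) and Col5a1 also had positive values and did not pass the test. Col13a1, with 3 counts in PMSC-MF-7d, was at 3.11 and did not pass it. The difference for Col15a1, -2.67 ± 0.81 (adjusted p = 0.00807), was no longer called without HSC-MF-7d replicate 1 (-2.05, adjusted p = 0.0587).

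**Figure D5:**
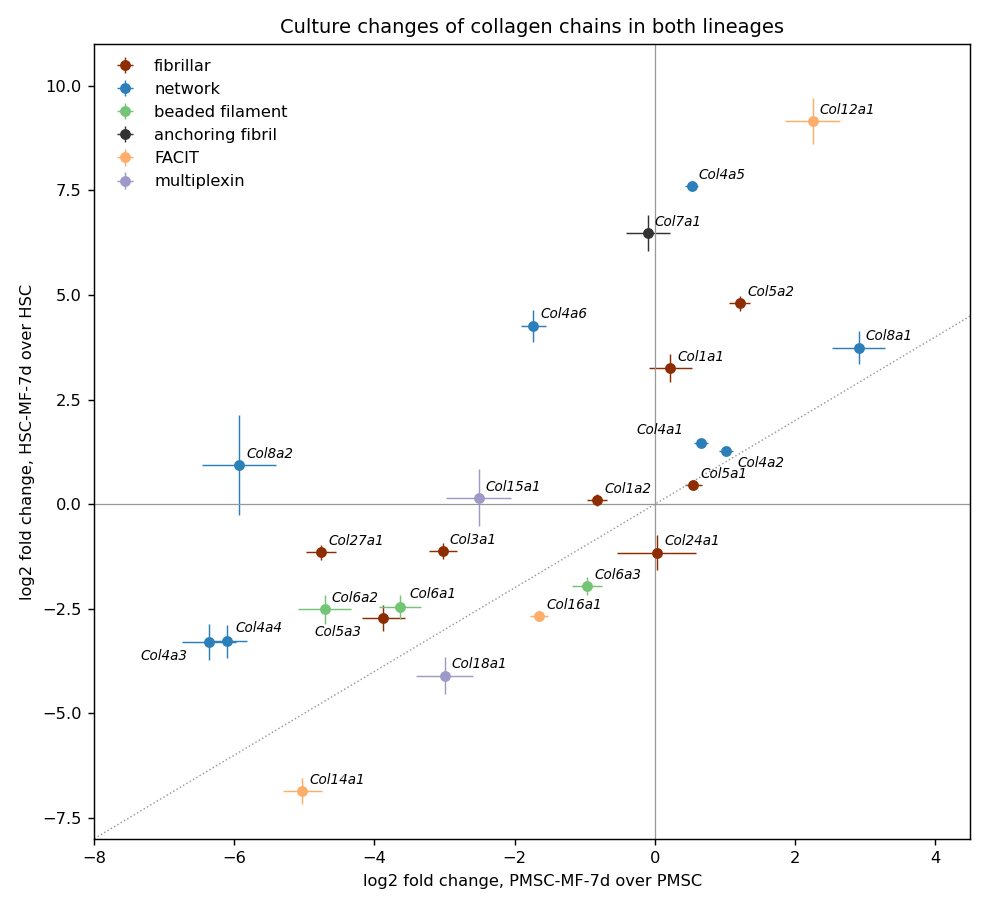
Log2 fold change of 25 chains in PMSC-MF-7d over PMSC (horizontal axis) and in HSC-MF-7d over HSC (vertical axis), with bars of 1 SE and a dotted line where both changes would be equal; 5 chains with 3 counts or fewer in a group are left out. Most chains lie above the line, where the HSC lineage has the higher change, with Col4a5, Col12a1 and Col7a1 far out. Col14a1, Col24a1, Col18a1, Col16a1, Col6a3 and, close to the line, Col5a1 lie below it.

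Genes that process collagen (hydroxylases, chaperones, propeptide proteases and crosslinking enzymes) were described from a list of 32, of which 31 were tested. In PMSC against HSC, 24 were higher and 2 lower, with a median log2 fold change of 1.14 (all genes: 33.6% higher, 40.1% lower). In PMSC-MF-7d against PMSC, 13 were higher and 13 lower (median 0.093; all genes: 38.1% and 39.0%, near these shares), and in HSC-MF-7d against HSC, 19 were higher and 8 lower (median 0.77; all genes: 36.0% and 38.5%). Lox and Loxl1 encode enzymes that crosslink collagen and elastin. Lox averaged 788 ± 189 CPM in PMSC cells, 3205 ± 179.8 in PMSC-MF-3d cultures and 3549 ± 434 in PMSC-MF-7d, against 1405 ± 169 CPM in HSC-MF-7d and 5.84 ± 4.68 in HSC. Loxl1 averaged 1056 ± 198 CPM in PMSC cells, 394 ± 40.9 in PMSC-MF-3d cultures and 430.5 ± 74.04 in PMSC-MF-7d, against 12.5 ± 2.38 CPM in HSC-MF-7d and 33.0 ± 9.87 in HSC. Lox thus was high in all 3 cultured groups, and Loxl1 in the PMSC lineage. Adamts2, the protease that trims the amino end of procollagen, averaged 133 ± 62.6 CPM in PMSC-MF-7d and 2637 ± 403 CPM in PMSC (-4.31 ± 0.29, adjusted p = 5.1e-11). Tll1, a protease of the other procollagen end, averaged 246 ± 19.1 CPM in PMSC-MF-3d cultures, 322 ± 82.8 in PMSC-MF-7d and 279.7 ± 65.8 in HSC-MF-7d, and under 1 CPM in every PMSC and HSC library. Plod2, a lysine hydroxylase, rose in HSC-MF-7d, to 290.3 ± 10.6 CPM against 27.9 ± 4.55 CPM in HSC (3.38 ± 0.13, adjusted p = 2.72e-14). P3h2, a proline hydroxylase for which type IV collagen is a known substrate, averaged 0.891 ± 0.595 CPM in PMSC-MF-7d and 47.5 ± 9.06 CPM in HSC-MF-7d (-5.74 ± 0.49, adjusted p = 1.24e-08). Adamts3, another protease of the amino end, was lower in PMSC-MF-7d than in PMSC (-5.85 ± 0.29, adjusted p = 5.94e-13). P4ha3, a subunit of prolyl 4-hydroxylase, was higher in PMSC-MF-7d than in PMSC (5.21 ± 0.31, adjusted p = 9.53e-12) and than in HSC-MF-7d (2.43 ± 0.25, adjusted p = 1.92e-07). Pcolce and Pcolce2 encode enhancers of the protease of the carboxyl end. Pcolce was higher in PMSC-MF-7d than in HSC-MF-7d (2.16 ± 0.16, adjusted p = 1.35e-09), and Pcolce2 in PMSC than in HSC (3.54 ± 0.26, adjusted p = 4.08e-10). Loxl2, a further crosslinking enzyme, rose in HSC-MF-7d against HSC (3.16 ± 0.18, adjusted p = 4.06e-12). With library totals, 4 processing genes in place of 2 were lower in PMSC than in HSC.

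Of 10 collagen receptor genes, 9 were tested, and 73.7%, 77.0% and 74.5% of all genes were called either way in the 3 comparisons that follow. In PMSC against HSC, 6 were higher and 3 lower; in PMSC-MF-7d against PMSC, 2 were higher and 4 lower (2 lower with library totals); in HSC-MF-7d against HSC, 5 were higher and 4 lower. The integrin chains for fibrillar and basement membrane collagen differed in which group carried them. Itga11 averaged 145 ± 34.3 CPM in PMSC cells and 1.25 ± 0.605 CPM in HSC (6.85 ± 0.39, adjusted p = 7.82e-12). Itga1 averaged 84.6 ± 30.9 CPM in PMSC cells and 540.4 ± 67.5 CPM in HSC (-2.67 ± 0.21, adjusted p = 8.66e-10). Itga2 averaged 1.55 ± 0.753 CPM in PMSC-MF-7d and 43.7 ± 7.11 CPM in HSC-MF-7d (-4.80 ± 0.46, adjusted p = 5.77e-08). Mrc2, an endocytic receptor that takes up collagen for breakdown, averaged 363 ± 98.3 CPM in PMSC-MF-7d and 25.8 ± 0.746 CPM in HSC-MF-7d (3.81 ± 0.21, adjusted p = 3.68e-11). Ddr1, a collagen-activated kinase, rose in both cultures, with a log2 fold change of 2.10 ± 0.14 (adjusted p = 3.95e-11) in PMSC-MF-7d against PMSC and of 1.88 ± 0.14 (adjusted p = 3.04e-10) in HSC-MF-7d against HSC. Ddr2, its relative, was lower in PMSC-MF-7d than in PMSC (-0.89 ± 0.10, adjusted p = 1.42e-07), and Itgb1, the beta chain that these integrins share, was higher (1.26 ± 0.091, adjusted p = 1.55e-10). Lair1, an inhibitory receptor of immune cells, was listed at 0 in PMSC and averaged 35.4 ± 15.1 CPM in HSC, where the macrophage markers summed to 1724 to 6463 CPM; their part in its level was not tested.

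The 5 tested genes whose log2 CPM followed Col1a1 most closely over the 20 libraries were Mmp16 (Pearson r = 0.981), Gria3 (0.979), Gpx7 (0.979), Rian (0.973) and Emp1 (0.971). Among the chains themselves, Col1a1 had a correlation of 0.942 with Col4a6, 0.936 with Col4a5, 0.820 with Col1a2 and 0.325 with Col3a1. Libraries of a group share cell type and culture, so these values describe the order of 5 groups more than 20 independent points.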

How the data were processed

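RNA was extracted with an RNeasy Micro kit and libraries were made with a KAPA Stranded mRNA-Seq kit, per the labels' protocols. The submitters' processing notes name FastQC, Trimmomatic, STAR 2.5.3a, RSEM 1.2.28 and the mm10 build, without their settings or order. Each library's deposited file holds, per the file headers, an estimated (expected) count, TPM, FPKM and an effective length (another value, in bases) for each of 24848 genes. The deposited expected counts are not normalized; the authors' TPM and FPKM are scaled for length and depth, and FPKM was not used. Expected counts were rounded to whole numbers, filtered with edgeR's filterByExpr (14751 genes kept) and scaled by TMM. One edgeR quasi-likelihood model (edgeR 4.0.16, limma 3.58.1, R 4.3.3) was fitted to all 20 libraries with a mean per group, with p-values adjusted by Benjamini-Hochberg over all genes and called at 0.05. The SE is the log2 fold change divided by the square root of F. Chains were given with the value of every library where a group mean reached 20 CPM and a test passed in at least 1 of the 6 pairwise comparisons; the others are given by count and highest level. Where a group held 0 counts of a gene, folds are bounds from a floor of 3 counts over the group; with 1 to 3 counts, ratios carry exact 95% counting intervals, which cover counting error only. From the lists of collagen processing genes and receptors, up to 4 called genes a list and comparison were named, by size of change, above 20 CPM in the higher group. The members, classes and lists were chosen with earlier results of these data known. Alternatives were library totals, DESeq2 size factors, DESeq2 1.42.0, limma on log2(TPM + 1), no filter, only the compared groups, a replicate block and leaving out each library. The lowest chi-square per degree of freedom between libraries of a group was 3.18, so no 2 libraries were counted as 1. Promoter windows and positions are from RefSeq, GRCm38.p6.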

Additional observations from a re-analysis of the deposited data

Results flagged for a closer look

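In 148 sets of 4 libraries (a described chain in a group, where the 4 values were not all equal), the library furthest from the rest was set against the group's range. In 14 sets it stood apart by Dixon's criterion. Its rate of about 1 in 20 holds for independent, normally spread values and is no measure of chance here. The sets share libraries, and a set with only 1 value above 0 stands apart whatever its count. HSC replicate 2 had 516 CPM of Col1a1, and the other HSC libraries had 129 to 173 CPM. PMSC replicate 4 had 14095 CPM of Col3a1 (others 9379 to 9835), and PMSC replicate 3 had 187 CPM of Col8a1 (others 53.3 to 69.8). PMSC-MF-3d replicate 1 had 401 CPM of Col8a1 (others 162 to 196), and PMSC-MF-3d replicate 2 had 3452 CPM of Col4a1 (others 2714 to 2780.5). HSC-MF-7d replicate 1 stood apart for 2 chains, with 156 CPM of Col11a1 (others 114 to 116) and 29.7 CPM of Col6a2 (others 37.5 to 39.0). PMSC-MF-7d replicate 2 was low for 2 chains, with 1358 CPM of Col6a3 (others 1784 to 1862) and 105 CPM of Col16a1 (others 149 to 158). At low levels, HSC replicate 2 had 8.05 CPM of Col12a1 (others 0.422 to 1.24) and 0.119 CPM of Col11a1 (others 0), and PMSC-MF-7d replicate 1 had 4.96 CPM of Col8a2 (others 0.408 to 0.806). Col13a1 stood apart at 0.109 CPM in PMSC-MF-7d replicate 1 (others 0) and 0.342 CPM in PMSC-MF-3d replicate 1 (others 0 to 0.0375).

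The change in culture differed between the lineages by the interaction test for 21 of the 30 described chains (edgeR adjusted p under 0.05), against 60.6% of all genes tested. These 30 were described in part because they had passed a test, so nothing is read from the share. Among fibrillar chains the difference (PMSC-MF-7d against PMSC minus HSC-MF-7d against HSC, log2) was -3.04 for Col1a1, -0.92 for Col1a2, -1.91 for Col3a1, -3.59 for Col5a2, -1.15 for Col5a3 and -3.61 for Col27a1. For Col11a1 it was -5.90, a fitted value that rests on 2 counts in HSC and is no bound. Without HSC replicate 2, which held both of those counts, it was -8.45, and the Col1a1 value was -3.73 without the same library. The call of Col5a3 was lost in 6 of the fits that left out 1 library each, with adjusted p up to 0.067. Among network chains it was -0.80 for Col4a1, -3.06 for Col4a3, -2.83 for Col4a4, -7.08 for Col4a5, -6.01 for Col4a6 and -6.87 for Col8a2. Among the other classes it was -1.18 for Col6a1, -2.20 for Col6a2, 0.997 for Col6a3, -6.58 for Col7a1, -6.91 for Col12a1, 1.83 for Col14a1, 1.02 for Col16a1 and -2.67 for Col15a1.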

How the results depend on the processing

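The 14 counts of called chains (higher and lower in each of the 7 comparisons) stayed within 1.5 times the reported count with DESeq2 size factors, DESeq2's Wald test, no filter on low counts, only the compared groups, and each library left out. Of the same counts, 2 moved: 8 chains were higher in PMSC-MF-3d than in PMSC with library totals (5 reported), and 9 had a positive difference of culture changes with limma on log2(TPM + 1) (4 reported), where 25.7% of called chains were positive, against 14.8%. With 1 library left out, 17 to 22 chains were higher in PMSC-MF-7d than in HSC-MF-7d, so the reported 22 is the top of that range. Summed per kb with TMM scaling, the log2 ratio of the collagen pool was 2.25 in PMSC against HSC (1.87 from TPM), -1.80 in PMSC-MF-3d against PMSC (-1.43) and -0.85 in PMSC-MF-7d against PMSC (-0.38). Direction turned for 2 chains in PMSC against HSC: Col4a1 was at -0.036 with library totals (adjusted p = 0.744) and -0.081 with limma (adjusted p = 0.492), and Col4a2 at -0.24 with limma (adjusted p = 0.0452). Among list genes, Itga1 in PMSC-MF-7d against PMSC (-0.019) turned to 0.45 with library totals and 0.52 with limma, and the P4ha3 difference of culture changes (-2.29) to 1.18 with limma. The cause was not tested. Replicate numbers were not used as pairs: same-numbered libraries correlated at -0.0518 to 0.145, and in 0 of 10 group pairs were all 4 values over 0.1. Still, 10 of 20 libraries correlated best with their own number among the 4 numbers. Whether the numbers stand for pairs is not known. With the number as a replicate block, 32 chains were higher and 4 lower in PMSC than in HSC, 19 and 3 in PMSC-MF-7d against PMSC-MF-3d, and 12 and 17 in HSC-MF-7d against HSC, and 208 single values kept their call and direction while, in PMSC-MF-7d against HSC-MF-7d, Col11a1 gained a call (-0.51, adjusted p = 0.0354) and Col6a5 lost it (3.47, adjusted p = 0.0506). Of the list genes, Adamts2 lost its call in the same comparison (0.70, adjusted p = 0.052). Chains under about 1 CPM rest on few counts; 3 counts over a group stand for 0.0279 CPM in PMSC-MF-7d and 0.0520 CPM in PMSC.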
